A study of Mus musculus with 10 samples.

Results

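Gene models annotated as ribosomal RNA or grouped with it as rRNA-like, and the gene Lars2, were followed across 2 mouse medulloblastoma lines. The 7 models are Gm26917, Lars2, Gm15564, Gm42418, AY036118, mt-Rnr1 and mt-Rnr2. They were chosen by their counts in these libraries, as models whose counts were much higher with the inhibitor THZ1, so their THZ1 values are given as a description with no test. Of the 7 named, 5 had a row in at least 1 of the 3 deposited tables, which together list 13976 genes. Gm26917, Lars2, mt-Rnr1 and mt-Rnr2 stood in all 3 tables, Gm42418 stood in the SMB56-shSufu table, and Gm15564 and AY036118 had no row.

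RNA was sequenced from SMB56, a line grown as neurospheres from spontaneous medulloblastoma of Ptch+/- mice at passages 10 to 15, and from SMB56-shSufu, the same line with a hairpin against Sufu. Cells received 0.1 µM THZ1, 1 µM GDC-0449 or DMSO (SMB56), or 0.1 µM THZ1 or DMSO (SMB56-shSufu), each for 8 hours, giving 5 groups of 2 libraries. THZ1 is a covalent inhibitor of CDK7, a kinase of the general transcription machinery, and GDC-0449 (vismodegib) inhibits Smoothened. The labels number the replicates without saying that they are separate cultures, so a p-value here speaks of library-to-library spread alone, and that spread may be technical.

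Ribosomal RNA makes up most of the RNA of a cell. RNA polymerase I transcribes 1 long precursor, from which 18S, 5.8S and 28S rRNA are cut, and mature rRNA carries no poly(A) tail. The mitochondrial genome encodes its own 12S and 16S rRNA, mt-Rnr1 and mt-Rnr2, which are cut from the same long transcripts as the mitochondrial mRNAs and carry short A tails. Lars2 encodes the mitochondrial leucyl-tRNA synthetase and is a nuclear, protein-coding gene. It shares a stretch of sequence with Gm15564. The likeness of Gm26917, Gm42418 or the Lars2 stretch to rRNA itself was not computed here.

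By gene ID, the models lie as follows in the GENCODE M21 annotation of the GRCm38 assembly. The deposited tables hold no coordinates, and the build named in the submitters' processing notes is the human hg19 although the IDs are mouse. Gm26917 (ENSMUSG00000097971) is annotated as a lincRNA with a single exon at chr17:39843013-39846341 on the plus strand. Directly after it, at chr17:39846353-39848827 on the minus strand, lies CT010467.1 (ENSMUSG00000106106), whose gene type is rRNA. CT010467.1 encloses 2 of the named models, Gm42418 at chr17:39846958-39848788 on the plus strand and AY036118 at chr17:39847113-39848035 on the minus strand. CT010467.1 was not among the named models and is described here, with AA474408, because of its position or sequence; both were chosen after their values were seen. Gm15564 is an antisense gene at chr16:35966752-35983230, Lars2 lies at chr9:123366927-123462666, and mt-Rnr1 and mt-Rnr2 occupy bases 70 to 1024 and 1094 to 2675 of the mitochondrial genome.

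The chromosome 17 models overlap on opposite strands. The first 1244 bases of the Gm42418 transcript and of the longer CT010467.1 transcript (1849 bases) are exact reverse complements of each other, and the 923 bases of AY036118 are identical to bases 167 to 1089 of CT010467.1. RefSeq's gene table gives Gm42418 as a synonym of Rn18s-rs5, an 18S pseudogene. The ends of that overlap, 1 on each strand, are shown to make the reverse complement visible, with the start of Gm26917, the model with the most counts.
Gm42418, bases 1185 to 1244: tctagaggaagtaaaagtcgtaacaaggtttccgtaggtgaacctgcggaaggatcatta
CT010467.1, bases 1 to 60: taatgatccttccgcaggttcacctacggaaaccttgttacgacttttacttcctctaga
Gm26917, bases 1 to 60: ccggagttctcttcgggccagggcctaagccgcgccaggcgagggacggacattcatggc
The longer Gm26917 transcript, 3329 bases long, has 69.1% G and C, against 35.8% in mt-Rnr1 and 35.4% in mt-Rnr2. It shared no stretch of at least 50 bases at 95% identity with a transcript of any other gene among 141767 GENCODE transcripts, and neither did the mitochondrial rRNAs.

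Lars2 shares sequence with a different pair of models. Bases 3278 to 3349 of the longest Lars2 transcript (3894 bases) matched bases 179 to 250 of the 402-base Gm15564 transcript over 72 bases at 98.6% identity, and bases 3163 to 3212 matched AA474408 (ENSMUSG00000073867, chr7:110057987-110061325, minus strand) over 50 bases at 96% identity. Both matches lie after base 2908, where the stop codon ends, in the last of 21 exons and so in the 3′ untranslated region, at chr9:123461933-123462119. The span of both is 187 bases, 4.8% of the transcript. Bases 179 to 231 of Gm15564 also matched bases 1588 to 1640 of AA474408, over 53 bases at 98.1% identity. A 30-base window inside that match shows how close these copies are. The capital marks G215A, the 1 base in the window at which they differ, counted from the start of the Gm15564 transcript with the Gm15564 base first. Bases 3299 to 3328 of Lars2 equal the Gm15564 line at all 30 positions.
Gm15564, bases 200 to 229: gttcacccactaataGggaacgtgagctgg
AA474408, bases 1609 to 1638: gttcacccactaataAggaacgtgagctgg
A count of Lars2 covers the whole gene, so counts over its shared span cannot be told apart from counts elsewhere in Lars2 in these tables. The sources used here do not say whether reads were counted by strand, so reads from CT010467.1 and from the models inside it cannot be told apart by strand.

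Per library, the SMB56 THZ1 table summed to 10614268 to 13170421 counts. Sums were 13131292 to 14986389 counts for GDC-0449 and its controls, and 30100041 to 33254885 counts for SMB56-shSufu. Each table holds a subset of genes, so a share below is a share of that table's counts; of the 10007 genes of the SMB56 THZ1 table, 8 lacked a deposited adjusted p-value under 0.05. Of 11 markers of granule neuron progenitors and SHH medulloblastoma, 9 or 10 had a row, with summed levels of 2329 to 4173 CPM (counts scaled to a library total of 1e+06), and no microglial or endothelial marker had one. Of 5 oligodendrocyte markers 3 had a row (15.6 to 608 CPM summed), not the same 3 in every table. The SMB56-DMSO libraries summed to 31.6 and 35.2 CPM in the THZ1 table and 211 and 220 CPM in the GDC-0449 table. Of 4 astrocyte markers only Gfap had a row, in the SMB56 THZ1 table (1.33 to 9.52 CPM). Of 4 fibroblast markers only Pdgfra did, in the SMB56-shSufu table (13.7 to 22.5 CPM). The part of these markers in the results was not tested. Sufu, the target of the hairpin, averaged 23.6 ± 0.63 CPM in SMB56-shSufu and 67.9 ± 3.2 CPM in SMB56 cells, both under DMSO (SD, n = 2 each). The log2 fold change was -1.52 ± 0.097 (adjusted p = 0.0012 in edgeR's quasi-likelihood test). Scaled within each THZ1 comparison, Sufu averaged 80.7 ± 3.9 CPM with THZ1 and 18.8 ± 0.33 CPM with DMSO in SMB56-shSufu. In SMB56 it averaged 131 ± 5.1 CPM with THZ1 and 70.2 ± 3.1 CPM with DMSO (SD, n = 2 each).

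With THZ1, Gm26917 became the gene with the most counts in both SMB56 libraries. It had 644121 and 584734 counts in the THZ1 libraries, against 2216 and 2448 in the DMSO libraries. THZ1 libraries gave it 5.40% and 5.51% of the table's counts, and DMSO libraries 0.0174% and 0.0186%. The exact (Clopper-Pearson) 95% intervals were 5.39% to 5.41% and 5.50% to 5.52% with THZ1, and 0.0167% to 0.0181% and 0.0179% to 0.0193% with DMSO. The labels name no molecular identifiers, so all such intervals cover counting error only. Both THZ1 libraries lay far above both DMSO libraries, and the libraries of a group lay close together. On TMM-normalized CPM the log2 fold change was 8.61 ± 0.11 (± its standard error, as for every fold change below), 390-fold, the second highest of 9863 genes fitted.

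In SMB56-shSufu cells Gm26917 had 484716 and 712696 counts with THZ1, against 2227 and 1292 counts with DMSO. In shares of the table, the THZ1 libraries had 1.48% and 2.37% and the DMSO libraries 0.00694% and 0.00389%. The groups did not overlap, but the libraries within each group were further apart than in SMB56. The log2 fold change was 8.88 ± 0.42, the highest of 11886 genes. By count Gm26917 ranked 4 and 3 in the THZ1 libraries, against 3704 and 5761 in the DMSO libraries.

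Lars2, the synthetase that charges mitochondrial leucine tRNA, had the next largest fold of the named models. In SMB56 it had 52845 and 46861 counts with THZ1, against 3851 and 3796 counts with DMSO. Its log2 fold change there was 4.27 ± 0.061, rank 146 from the highest of 9863 genes. In SMB56-shSufu it had 79308 and 73510 counts with THZ1, against 1000 and 1029 counts with DMSO, a log2 fold change of 6.70 ± 0.21 and the second highest of all genes fitted. In both lines the groups were far apart, and the replicates were close. The fold was 19.3 in SMB56 and 104 in SMB56-shSufu, whose DMSO level was the lower. On a scale common to all 10 libraries, the lines differed less with THZ1, at 3872 ± 39.3 CPM in SMB56-shSufu and 5960 ± 81.9 CPM in SMB56, than with DMSO, at 34.7 ± 0.14 CPM in SMB56-shSufu and 259.5 ± 10.0 CPM in SMB56 (SD, n = 2 each). The difference between the lines' responses was not tested, since THZ1 values chose the models.

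Other enzymes of the same class did not share that size. The list of mitochondrial tRNA synthetases without Lars2 also names Gatb, Gatc and Qrsl1, subunits of a tRNA amidotransferase. Of this list, 5 of 17 had a fold above 0 and 12 below in SMB56. The median log2 fold change was -0.82 against -0.31 over all genes. In SMB56-shSufu 5 of 19 lay above and 14 below, with a median of -0.47 against -0.04. Mars2, which charges methionine tRNA, had the highest value in both lines, 2.40 ± 0.068 in SMB56 and 2.09 ± 0.16 in SMB56-shSufu. Lars, the cytosolic leucyl-tRNA synthetase, averaged 102 ± 2.4 CPM with THZ1 and 193 ± 0.70 CPM with DMSO in SMB56, and 86.6 ± 10.8 CPM with THZ1 and 154 ± 19.8 CPM with DMSO in SMB56-shSufu (SD, n = 2 each).

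The neighbours in sequence were also high with THZ1. CT010467.1, beside Gm26917 and over Gm42418, had 101630 and 88895 counts with THZ1, against 6636 and 6656 counts with DMSO in SMB56. In SMB56-shSufu it had 117492 and 147156 counts with THZ1, against 4718 and 3346 counts with DMSO. Of the exonic bases of CT010467.1, 73.9% also belong to another gene, and how reads there were counted was not tested. AA474408, which carries the Lars2-like stretch, had 366 and 336 counts with THZ1, against 69 and 64 counts with DMSO in SMB56, and 2255 and 1937 counts with THZ1, against 173 and 189 counts with DMSO in SMB56-shSufu. None of these groups overlapped. The log2 fold changes of CT010467.1 were 4.40 ± 0.066 in SMB56 and 5.50 ± 0.27 in SMB56-shSufu. AA474408 averaged 35.3 ± 0.48 CPM with THZ1 and 4.53 ± 0.36 CPM with DMSO in SMB56, and 76.7 ± 3.4 CPM with THZ1 and 4.80 ± 0.13 CPM with DMSO in SMB56-shSufu (SD, n = 2 each). The ratio of CT010467.1 to Lars2 counts was 1.92 and 1.90 with THZ1 and 1.72 and 1.75 with DMSO in SMB56, while that of Gm26917 to Lars2 was 12.2 and 12.5 with THZ1 and 0.575 and 0.645 with DMSO. In SMB56-shSufu the ratio of CT010467.1 to Lars2 was 1.48 and 2.00 with THZ1 and 4.72 and 3.25 with DMSO, and that of Gm26917 to Lars2 was 6.11 and 9.70 with THZ1 and 2.23 and 1.26 with DMSO.

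**Figure D1:**
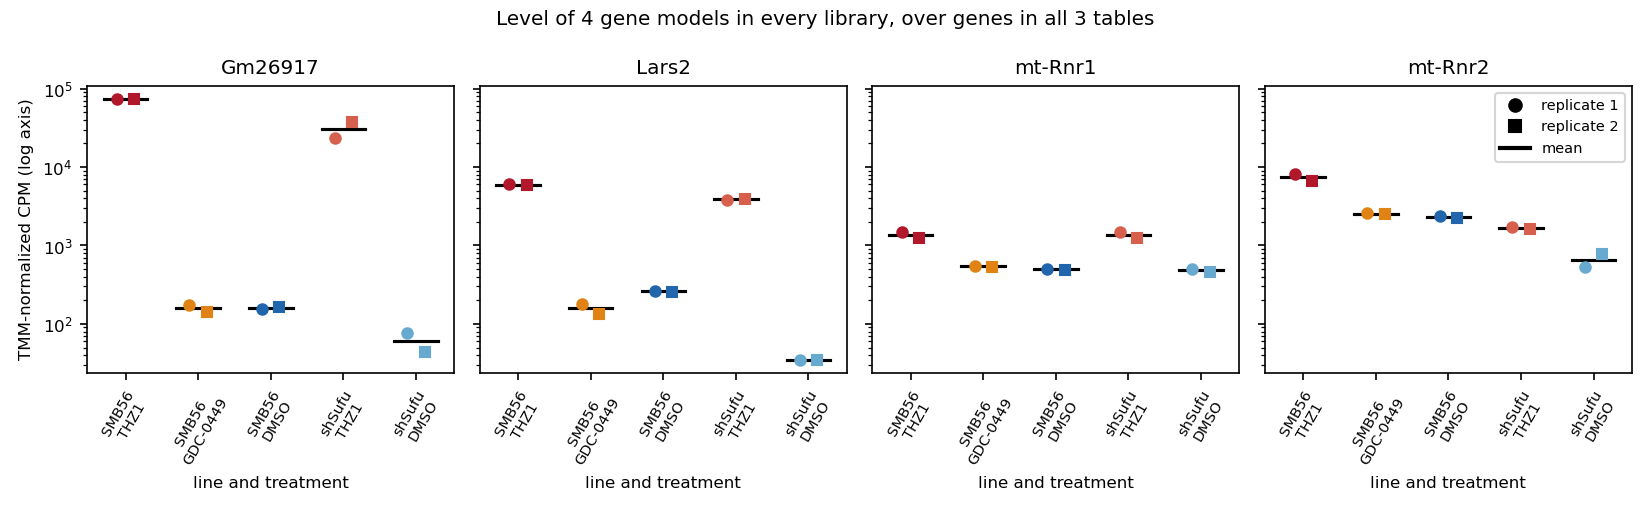
Level of Gm26917, Lars2, mt-Rnr1 and mt-Rnr2 in each of the 10 libraries, as TMM-normalized CPM over the 7244 genes in all 3 tables, on a log axis; points are libraries and the black line is the group mean. Gm26917 averages 73500 CPM with THZ1 and 158 CPM with DMSO in SMB56, while mt-Rnr1 averages 1364 CPM with THZ1 in either line.

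The mitochondrial rRNAs were higher with THZ1 by a far smaller factor. In SMB56, mt-Rnr1 (12S) had 12915 and 9989 counts with THZ1, against 7332 and 7386 counts with DMSO, and mt-Rnr2 (16S) had 72129 and 52341 counts with THZ1, against 34058 and 34186 counts with DMSO. The THZ1 libraries lay above the DMSO libraries, although THZ1 totals were lower. The fold was 2.29 for mt-Rnr1 and 2.68 for mt-Rnr2. In SMB56-shSufu, mt-Rnr1 had 30271 and 23753 counts with THZ1, against 14501 and 13841 counts with DMSO (log2 fold change 1.39 ± 0.17). There mt-Rnr2 had 35229 and 30857 counts with THZ1, against 15284 and 22862 counts with DMSO (1.26 ± 0.19), and the DMSO libraries were the less alike.

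Mitochondrial mRNAs had folds of the same size. All 12 measured in SMB56 and all 13 in SMB56-shSufu had a fold above 0, with medians of 1.37 and 1.32. Within each line, the treated and control libraries had like shares of mitochondrial counts on the 2 rRNAs. In SMB56 they were 9.44% and 8.96% of those counts with THZ1, 8.47% and 8.78% with GDC-0449, and 8.67% and 8.44% with DMSO. In SMB56-shSufu they were 1.52% and 1.39% with THZ1, against 1.57% and 1.33% with DMSO. These shares rest on 12 mitochondrial mRNAs in SMB56 and 13 in SMB56-shSufu, whose table adds mt-Atp8, a subunit of ATP synthase. Over the 12 in every table, a choice made after the data were seen, the share was 1.33% to 1.57% in SMB56-shSufu libraries and 8.44% to 9.44% in SMB56 libraries. The lines come from separate tables, so a difference of line in this share cannot be separated from one of table.

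**Figure D2:**
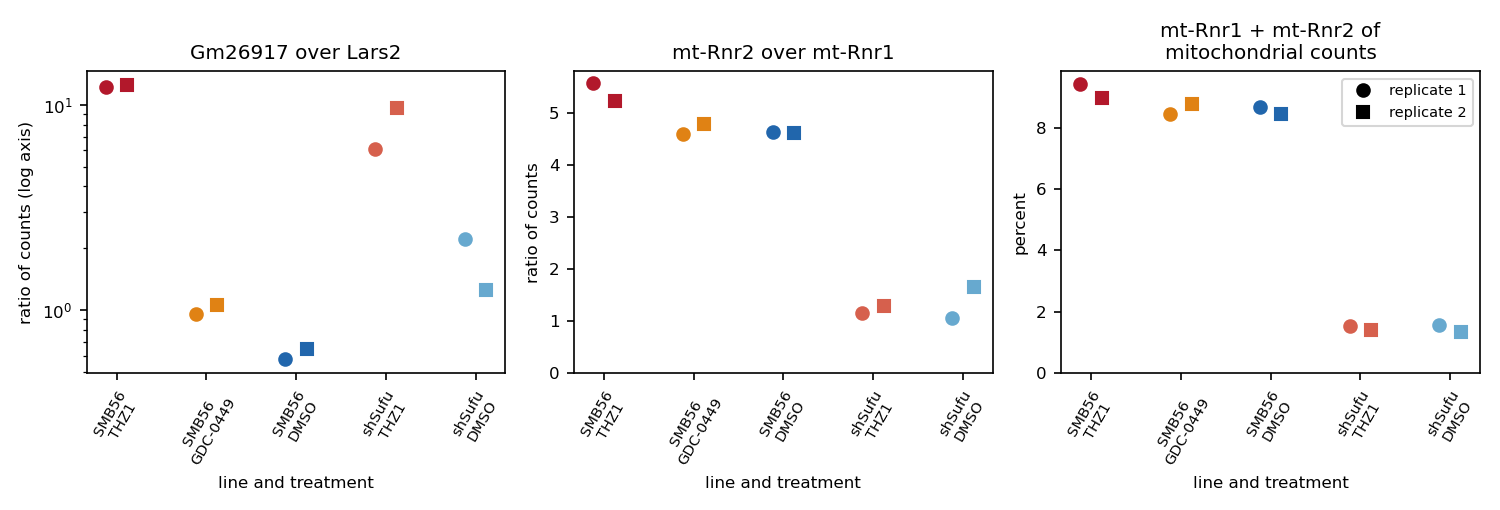
Ratios within each library: Gm26917 over Lars2 counts (log axis), mt-Rnr2 over mt-Rnr1 counts, and the percent of mitochondrial counts on the 2 mitochondrial rRNAs, by line and treatment; each point is a library. Gm26917 over Lars2 is highest with THZ1 in both lines, whereas the other panels separate the lines, which come from separate tables, with mt-Rnr2 over mt-Rnr1 at 4.61 to 5.58 in SMB56 and 1.05 to 1.65 in SMB56-shSufu.

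All 4 models in every table had both THZ1 libraries above both DMSO libraries in CPM, as had 44.4% of all genes in SMB56 and 39.2% in SMB56-shSufu. Of all genes 55.5% and 41.8% had both below. Since THZ1 values chose the models, nothing is read from that count. Summed, they took 6.55% and 6.54% of the SMB56 table with THZ1 and 0.373% and 0.363% with DMSO. In SMB56-shSufu they held 1.92% and 2.79% with THZ1, against 0.103% and 0.117% with DMSO. Gm26917 was 82.4% and 84.3% of their summed counts with THZ1 in SMB56, against 4.67% and 5.12% with DMSO, where mt-Rnr2 was 71.8% and 71.5%. By their size alone, they shifted the log2 fold of every other gene, taken as a plain share of counts, by -0.092 in SMB56 and -0.033 in SMB56-shSufu.

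**Figure D3:**
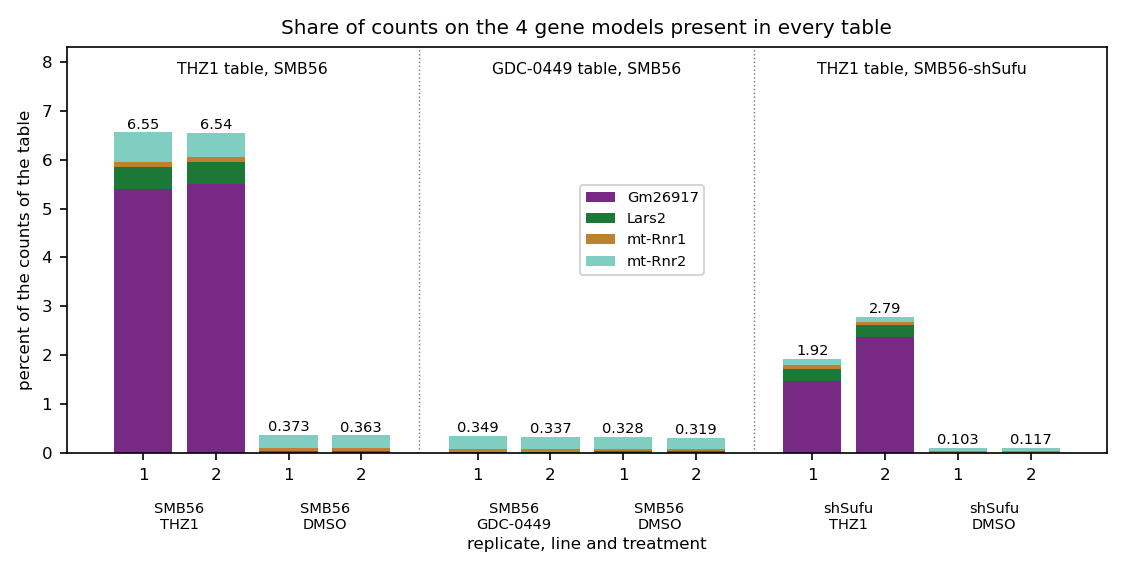
Percent of each table's counts on Gm26917, Lars2, mt-Rnr1 and mt-Rnr2, stacked, for every library in each table that holds it; numbers above the bars are sums. With THZ1 the bars reach 6.55% and 6.54% in SMB56 and 1.92% and 2.79% in SMB56-shSufu, mostly Gm26917, and every other bar is under 0.4%.

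The size of a fold depended on how libraries were scaled. Over 7 scalings the log2 fold change of Gm26917 in SMB56 ran from 7.35 (scaled by mitochondrial mRNAs) to 8.91 (DESeq2-type size factors), while the median of all genes ran from -1.57 to -0.01. A scaling shifts the folds of all genes in a comparison by nearly the same amount, so a gene's distance from that median is fixed by construction and is no sign of stability. The sign of a mitochondrial rRNA turned in 1 setting: scaled by mitochondrial mRNAs, mt-Rnr1 had -0.07 in SMB56 and mt-Rnr2 had -0.03 in SMB56-shSufu.

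**Figure D4:**
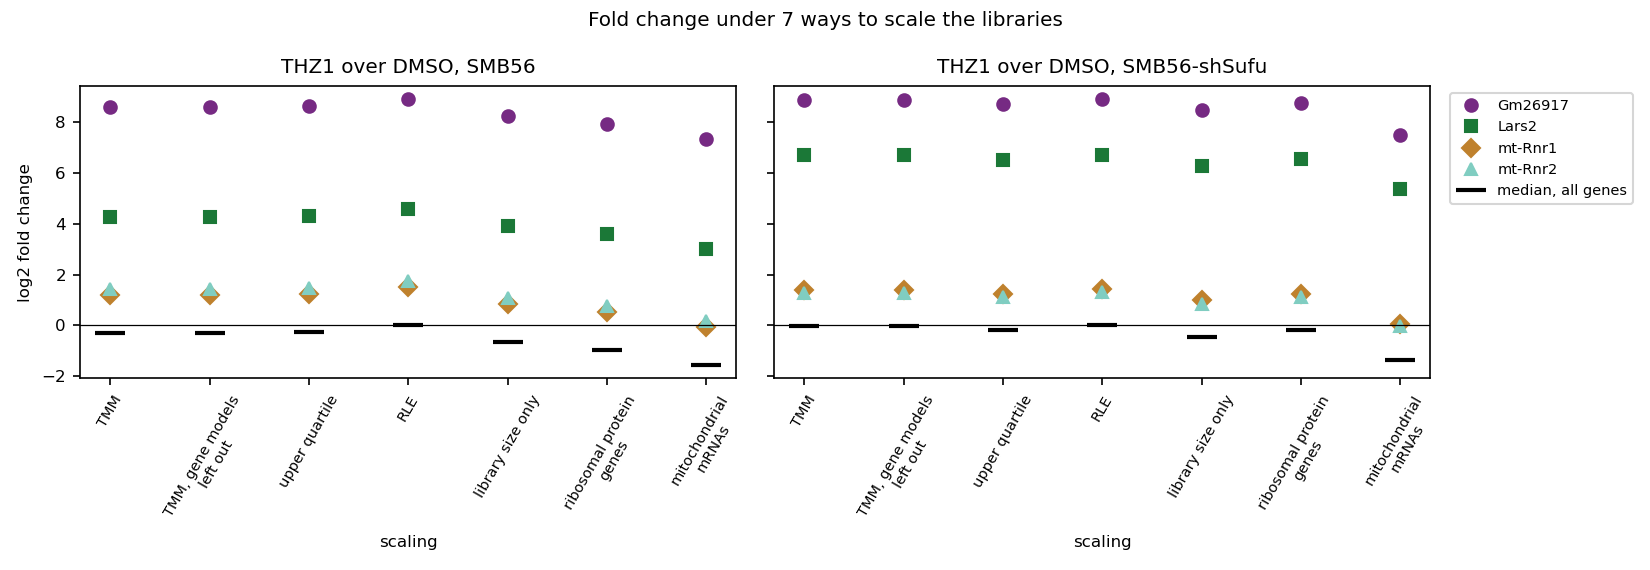
Log2 fold change of 4 gene models, THZ1 over DMSO, under 7 scalings of the libraries, in SMB56 (left) and SMB56-shSufu (right); black bars are the median of all genes. Points and medians move together by construction, and with scaling by mitochondrial mRNAs mt-Rnr1 and mt-Rnr2 lie near 0.

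RNAs without a poly(A) tail (replication-dependent histone mRNAs and small structured RNAs) had 15 of 15 folds above 0 with THZ1 in SMB56, median 2.07, and 13 of 14 in SMB56-shSufu, median 1.15. In the GDC-0449 table, which shares the SMB56 DMSO libraries, only 4 genes of the list had a row. A gene high with THZ1 alone could enter a THZ1 table through that group, so nothing is read from these counts or medians. In limma on log2(FPKM + 1), with no filter on low counts, the medians were 0.71 in SMB56 (17 genes) and 0.23 in SMB56-shSufu (20 genes). On log2(FPKM + 0.1) they were 1.30 and 0.35 over the same genes. Hist1h2bp, a histone H2B gene, had the highest fold in SMB56, 5.60 ± 0.47. The labels name an Illumina TruSeq RNA kit and do not say whether poly(A) RNA was selected. The part of RNA selection in the high counts with THZ1 was not tested. In bulk RNA a smaller amount of mRNA per cell cannot be told apart from a larger amount of rRNA-like RNA, and neither from a change in the number of cells.

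Of the genes that make or process rRNA, more had folds below 0 than above with THZ1, as had all genes. The median of all genes was -0.31 in SMB56 and -0.04 in SMB56-shSufu. Of the RNA polymerase I list, 1 of 10 had a fold above 0 with THZ1 in SMB56 and 2 of 15 in SMB56-shSufu, with medians of -0.58 and -0.34. Of the rRNA processing list, 4 of 16 and 4 of 20 lay above 0, with medians of -0.48 and -0.31. With DESeq2-type size factors, which put the median of all genes in SMB56 at -0.01, the SMB56 medians were -0.18 for rRNA processing and -0.27 for RNA polymerase I. With 1 library left out, the rRNA processing median in SMB56-shSufu ran from -0.57 to -0.19, the ends being without DMSO replicate 2 and without DMSO replicate 1. Ttf1, the terminator of polymerase I transcription, had the lowest value of the first list in both lines, -2.28 ± 0.098 in SMB56 and -1.78 ± 0.18 in SMB56-shSufu. The RNA exosome and Xrn2, nucleases that trim and degrade rRNA precursors, had 0 of 10 folds above 0 in SMB56 and 1 of 12 in SMB56-shSufu, with medians of -1.07 and -0.97. Exosc1, an exosome subunit, was lowest in both, at -2.21 ± 0.086 and -2.46 ± 0.17. The mRNA of Rplp0, a stalk protein of the large ribosomal subunit, had folds of 1.25 ± 0.060 in SMB56 and 1.05 ± 0.17 in SMB56-shSufu on the log2 scale. It lay above the median of its list in both lines, as ribosomal protein genes had 76 of 80 folds above 0 in SMB56, median 0.64, and 49 of 85 in SMB56-shSufu, median 0.10. Genes of mitochondrial transcription and RNA handling had 1 of 9 folds above 0 in SMB56, median -1.04, and 3 of 11 in SMB56-shSufu, median -0.67, while the mitochondrial RNAs themselves lay above 0. Folds here are no test, since the SMB56 table holds almost only genes that passed the authors' own test of THZ1.

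**Figure D5:**
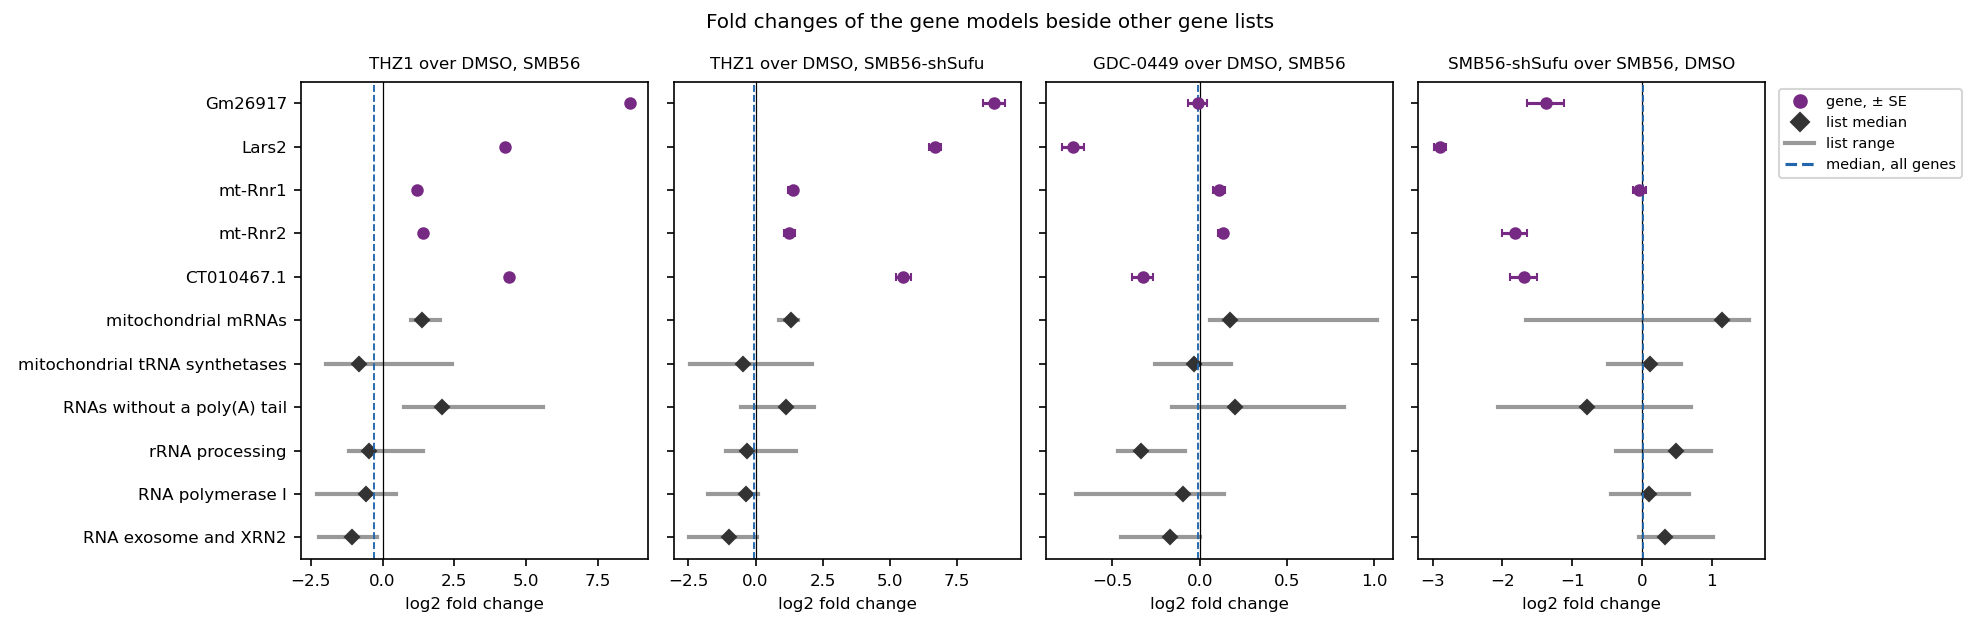
Log2 fold changes of Gm26917, Lars2, mt-Rnr1, mt-Rnr2 and CT010467.1 (circles, ± standard error) beside medians (diamonds) and ranges (grey lines) of 6 gene lists in 4 comparisons; the dashed line is the median of all genes, and the x axes differ. Gm26917 and Lars2 lie above every list median with THZ1, whereas Lars2 lies below every list median with GDC-0449 and in SMB56-shSufu against SMB56.

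Gm42418, listed by RefSeq as an 18S pseudogene, had values that disagreed between columns. The SMB56-shSufu table lists 0 counts for it in all 4 libraries. The exact 95% limit, 1.23e-05% of the table's counts in any of them, covers counting error only and does not bound its RNA level. The authors' FPKM values for the same row were 4790 and 5964 with THZ1, against 149 and 90.6 with DMSO. On the FPKM scale it was near Gm26917 with THZ1, where the ratio of Gm42418 to Gm26917 was 1.06 and 0.906, against 5.19 and 6.66 with DMSO. Of the exonic bases of Gm42418, 99.5% also belong to another gene. The table has 88 rows with 0 counts in all 4 libraries, and of the 84 found in the annotation, 55 (65.5%) share every exonic base with another gene, as do 4 of the 11949 other rows. No fold of Gm42418 is given, and how its reads were assigned was not tested.

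With GDC-0449 Lars2 fell, and Gm26917 did not pass the test. This comparison was not used to choose the models, although its DMSO libraries are those of the SMB56 THZ1 comparison. Gm26917 had 2529 and 1873 counts with GDC-0449, against 2216 and 2448 counts with DMSO, so the GDC-0449 libraries lay on both sides of the DMSO libraries. In CPM it averaged 158 ± 22.4 with GDC-0449 and 159 ± 7.0 with DMSO (SD, n = 2 each; log2 fold change -0.010 ± 0.054, edgeR adjusted p = 0.88). The replicates decide even the sign: without GDC-0449 replicate 1 the value was -0.17 (adjusted p = 0.0052), and without replicate 2 it was 0.12 (adjusted p = 0.035).

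Lars2 had 2642 and 1761 counts with GDC-0449, against 3851 and 3796 counts with DMSO. Both GDC-0449 libraries lay below both DMSO libraries in CPM, as for 35% of all genes (both above for 35.9%), and they differed from each other more than the DMSO libraries did. Lars2 averaged 157 ± 33.9 CPM with GDC-0449 and 261 ± 9.5 CPM with DMSO (SD, n = 2 each). The log2 fold change was -0.73 ± 0.064 (edgeR adjusted p = 1.8e-10), rank 91 from the lowest of 10008 genes. The call held in DESeq2 (adjusted p = 0.0089), in the fit of all 10 libraries (0.014) and in limma on FPKM (0.041). In the authors' deposited table its log2 fold change was 0.44 as DMSO over GDC-0449, with an adjusted p of 0.013.

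Of the 4 models, edgeR called 3 with GDC-0449, Lars2 lower and both mitochondrial rRNAs higher, where 36.3% of all genes were called (17.5% higher and 18.8% lower). Under other scalings the share of calls that were higher, 48.3% with TMM, was 58.3% when scaled by ribosomal protein genes and 11.8% when scaled by mitochondrial mRNAs. Counts of mt-Rnr1 were 8099 and 6998 with GDC-0449, against 7332 and 7386 with DMSO. Scaled to CPM, both GDC-0449 libraries lay above, at 542 ± 18.4 with GDC-0449 and 502 ± 10.6 with DMSO (SD, n = 2 each; edgeR log2 fold change 0.11 ± 0.033, adjusted p = 0.0082). Its call was lost in DESeq2 (adjusted p = 0.051), in the fit of all 10 libraries (0.61), in limma (0.75), without GDC-0449 replicate 1 (0.13) and without DMSO replicate 2 (0.11), and the authors' deposited table gives mt-Rnr1 an adjusted p of 0.16. For mt-Rnr2 the counts were 37330 and 33609 with GDC-0449, against 34058 and 34186 with DMSO, and CPM averaged 2551 ± 12.3 with GDC-0449 and 2329 ± 55.2 with DMSO (log2 fold change 0.13 ± 0.028, adjusted p = 0.00043). That call was lost in the fit of all 10 libraries (0.69) and in limma (0.59), and scaled by mitochondrial mRNAs the values were 0.02 for mt-Rnr2 (adjusted p = 0.83) and -0.01 for mt-Rnr1 (adjusted p = 0.95).

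As shares of the table's counts, the 4 models together held 0.349% and 0.337% with GDC-0449, against 0.328% and 0.319% with DMSO. An exact two-sided permutation test over the 2 and 2 libraries gave p = 0.333, the smallest this design allows. CT010467.1 had 6014 and 4091 counts with GDC-0449, against 6636 and 6656 counts with DMSO, lower in both (log2 fold change -0.33 ± 0.061, edgeR adjusted p = 9.1e-05). Without GDC-0449 replicate 1 the value was -0.55, and without GDC-0449 replicate 2 it was -0.14 (adjusted p = 0.0033). The call was lost in DESeq2 (adjusted p = 0.30), in the fit of all 10 libraries (0.46) and in limma (0.23). Its fold was nearer 0 than that of Lars2, a difference that was not tested, the ratio of CT010467.1 to Lars2 counts being 2.28 and 2.32 with GDC-0449 and 1.72 and 1.75 with DMSO.

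Among the related lists, 18 of 20 rRNA processing genes were called lower with GDC-0449 and none higher, with a median of -0.34 against -0.01 over all genes. Over all genes 36.3% were called, 18.8% lower and 17.5% higher. Whether a list differs from all genes in this was not tested. Of the RNA exosome list 8 of 10 were called lower, and of the RNA polymerase I list 7 of 15. Rrs1, a ribosome assembly factor, had the lowest value of the first list (-0.47 ± 0.063, adjusted p = 6.8e-07). Of the mitochondrial mRNAs, 11 of 12 were called higher, with a median of 0.17. Of the 16 genes measured in the mitochondrial tRNA synthetase list 1 was called, Yars2 (-0.26 ± 0.079, edgeR adjusted p = 0.011). DESeq2 called 17, 3, 3 and 5 genes in those directions in the rRNA processing, exosome, RNA polymerase I and mitochondrial mRNA lists. The fit of all 10 libraries held 16, 8, 10 and 12 genes of these lists and called 0, 0, 1 and 0. Over all genes DESeq2 called 1658, and the fit of all 10 libraries called 145 of its 7244, against 3633 in edgeR on this comparison's own libraries. With 1 library left out, calls in the exosome and RNA polymerase I lists varied with the library. Calls over all genes did so too, so no list count is read from those fits.

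Under DMSO, SMB56-shSufu cells had lower Lars2, mt-Rnr2 and Gm26917 than SMB56 cells, whereas mt-Rnr1 did not pass the test. This comparison joins 2 tables, so a difference of line cannot be told apart from one of table, sequencing or depth, and both groups are also controls of the THZ1 comparisons. SMB56-shSufu cells had 1000 and 1029 counts of Lars2, against 3851 and 3796 counts in SMB56 cells. Lars2 averaged 33.9 ± 0.20 CPM in SMB56-shSufu and 252 ± 9.7 CPM in SMB56 (SD, n = 2 each), a log2 fold change of -2.90 ± 0.087 (edgeR adjusted p = 6e-04). That is 7.44-fold lower, and rank 9 from the lowest of 9719 genes.

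Gm26917 averaged 59.1 ± 23.6 CPM in SMB56-shSufu and 154 ± 6.5 CPM in SMB56 (SD, n = 2 each; edgeR log2 fold change -1.38 ± 0.27, adjusted p = 0.012). CT010467.1 averaged 135 ± 35.9 CPM in SMB56-shSufu and 438 ± 11.4 CPM in SMB56 (-1.70 ± 0.19, adjusted p = 0.003). For either gene both SMB56-shSufu libraries lay below both SMB56 libraries, as they did for 37.3% of all genes, with both above for 38.3%. Of the 4 models 3 were called lower and none higher, where 40.6% of all genes were called (20.8% higher and 19.8% lower). The share of calls that were higher was 51.3% with TMM, 38.4% by library size only, 30.4% scaled by ribosomal protein genes and 0.168% scaled by mitochondrial mRNAs.

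The 2 mitochondrial rRNAs had unlike values between the lines, a difference between them that was not tested. SMB56-shSufu cells had 519.9 and 749 CPM of mt-Rnr2, against 2289 and 2208 CPM in SMB56 cells, a log2 fold change of -1.82 ± 0.18 (edgeR adjusted p = 0.0026). For mt-Rnr1, SMB56-shSufu cells had 493 and 454 CPM, against 493 and 477 CPM in SMB56 cells, and the groups overlapped (-0.03 ± 0.087, adjusted p = 0.77). Scaled by mitochondrial mRNAs, mt-Rnr1 was at -1.37 (adjusted p = 9e-04). Without SMB56-shSufu replicate 1 it was -0.10 (adjusted p = 0.0081), and without replicate 2 it was 0.03 (adjusted p = 0.52). Their ratio, mt-Rnr2 over mt-Rnr1, was 1.05 and 1.65 in SMB56-shSufu and 4.65 and 4.63 in SMB56. Of 12 mitochondrial mRNAs 7 were called higher in SMB56-shSufu, with a median of 1.15, and 1 was called lower, mt-Nd3 (-1.66 ± 0.38, adjusted p = 0.02). Of the rRNA processing list 11 of 20 were called higher and none lower, with a median of 0.49 against 0.01 over all genes. In the RNA exosome list 6 of 10 were called higher. In the RNA polymerase I list 6 of 15 were called higher and 1 lower. Over all genes 40.6% were called, 20.8% higher and 19.8% lower. Whether any of these lists differs from all genes was not tested. With 1 library left out, calls in the rRNA processing, exosome and RNA polymerase I lists varied widely with the library. Calls over all genes did so too, so no list count is read from those fits. Scaled by mitochondrial mRNAs, 13 rRNA processing, 8 exosome and 14 RNA polymerase I genes were called lower and none higher. In that fit 8927 of all 9719 genes were called lower and 15 higher, so nothing about these lists is read from it.

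Genes whose levels followed the models most closely over the 10 libraries were taken from 7240 genes by Pearson's r of log2 CPM, as a description; the libraries share treatments, and 18.2% of these genes had r above 0.9 with Gm26917 and 14.2% with Lars2. Closest to Gm26917 were Gfpt1, an enzyme of hexosamine synthesis, Pank3, a pantothenate kinase, Ppm1l, a phosphatase, Etv3, an ETS repressor, and Alkbh5, an m6A demethylase, with r from 0.998 to 0.9996. Closest to Lars2 were Zfp451, a SUMO ligase, Klc1, a kinesin light chain, Rbm12, an RNA-binding protein, Tspan3, a tetraspanin, and Mical3, with r from 0.993 to 0.996. Their ranges were much narrower: Gfpt1 had 297 and 299 CPM with THZ1 and 110 and 112 CPM with DMSO in SMB56. CT010467.1 had r = 0.993 with Gm26917, rank 45, and r = 0.992 with Lars2, rank 8.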

How the data were processed

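Per the labels' protocols, cells were lysed in Trizol, and the TruSeq RNA kit of Illumina was used to prepare libraries. The authors deposited 3 tables of read counts per gene with FPKM values for the same libraries, and beside them their own log2 fold changes, p-values, mean signal per gene and test scores, which are named as theirs where used. Among the tools in the submitters' processing notes are Cufflinks 2.2.1, DESeq2 1.20.0 and STAR 2.5.3a, beside the build hg19, and the step each served is not given. In both SMB56 tables the deposited fold is DMSO over treated.

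Counts of each comparison's own 4 libraries were fitted across the whole table with edgeR 4.0.16 in R 4.3.3 (TMM, filterByExpr, quasi-likelihood F test, 2 residual degrees of freedom), with Benjamini-Hochberg adjustment over all genes and calls at adjusted p under 0.05. The line comparison used the 9719 genes in both the GDC-0449 and SMB56-shSufu tables. DESeq2 1.42.0 and limma 3.58.1 on log2(FPKM + 1) were alternatives, with a pseudocount of 0.1 as another. Lists of log2 CPM used a prior count of 2. The members and lists were chosen with earlier results of these data known. Named genes were the 7 models, the highest and lowest of each list, the 5 most alike, Lars, Sufu and Rplp0. Depth limits the precision of small shares, for which exact 95% intervals are given. No 2 libraries of a group held the same counts, since their chi-square was at least 1.81 per gene. It was highest in SMB56-shSufu, at 62.4 with DMSO and 26.2 with THZ1.

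Sequences and places come from GENCODE M21, searched with BLAST 2.17.0+. On simulated counts with 200 genes changed by a log2 fold of 1, the fit recovered 100% for the GDC-0449 comparison (10008 genes) and 93.5% for the line comparison (9719 genes), where 3.38% and 8.33% of all calls were false. The simulation gave both groups the same spread, whereas chi-square per gene was 1.85 in SMB56-DMSO and 62.4 in SMB56-shSufu-DMSO. In the data 36.3% and 40.6% of genes were called, so these rates do not describe the comparisons themselves.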

Additional observations from a re-analysis of the deposited data

Results flagged for a closer look

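Gm42418 carried a value outside the counts on which the comparisons rest. Its counts were 0 in every SMB56-shSufu library, but its FPKM averaged 5377 ± 831 with THZ1 and 120 ± 41.6 with DMSO (SD, n = 2 each). It was picked out because the FPKM column gives THZ1 values above those of the DMSO libraries for a row with 0 counts in every library, and the edgeR fits rest on counts. How counting treated reads in the bases that Gm42418 shares with CT010467.1 and AY036118 was not tested.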

How the results depend on the processing

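The log2 fold change of Gm26917 with THZ1 in SMB56, 8.61, was 8.91 with DESeq2-type size factors, 8.24 by library size only, 7.35 scaled by mitochondrial mRNAs, 7.93 scaled by ribosomal protein genes, 8.86 in the fit of all 10 libraries, and 8.13 and 8.16 in limma on log2(FPKM + 1) and log2(FPKM + 0.1). It was 8.55 to 8.64 with 1 library left out at a time. In SMB56-shSufu the value of 8.88 was 7.49 scaled by mitochondrial mRNAs and 8.03 and 8.10 in limma, and 8.50 to 9.37 with 1 library left out. With scaling by mitochondrial mRNAs, mt-Rnr1 was -0.071 with THZ1 in SMB56 and -0.0053 with GDC-0449, mt-Rnr2 was -0.025 with THZ1 in SMB56-shSufu, and the median of RNAs without a poly(A) tail there was -0.11. Gm26917 with GDC-0449, at -0.010, was 0.0059 by library size only, 0.011 by upper quartile, 0.0100 scaled by ribosomal protein genes, 0.15 in both limma fits, and -0.17 to 0.12 with 1 library left out. mt-Rnr1 in SMB56-shSufu against SMB56 ran from -0.10 to 0.027 with 1 library left out. A lone library was assumed to vary like the other group.

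Calls with GDC-0449, 3633 in edgeR, were 1658 in DESeq2, 634 and 624 in limma, 145 in the fit of all 10 libraries, and 2771 to 3036 with 1 library left out. Calls between the lines, 3948, were 8942 scaled by mitochondrial mRNAs and 1806 to 7465 with 1 library left out. These were 7250 and 7465 without SMB56-shSufu-DMSO replicates 1 and 2, and 1837 and 1806 without SMB56-DMSO replicates 1 and 2. The chi-square between the libraries of a group was 1.85 per gene in SMB56-DMSO and 62.4 in SMB56-shSufu-DMSO. The part of this spread in the number of calls was not tested. Lars2 kept its direction and its call with GDC-0449 and between the lines under every alternative run, as did Gm26917, mt-Rnr2 and CT010467.1 between the lines. A replicate block gave 3965 calls with GDC-0449 and 4395 between the lines, and changed no call of a named model. Deviations of same-numbered libraries correlated at 0.0164 and 0.112 across genes in the SMB56 and SMB56-shSufu THZ1 comparisons, 0.0916 with GDC-0449 and 0.035 between the lines, so the numbers are not treated as pairing the libraries.

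The summed share of the 4 models, counted over genes in all 3 tables, was 6.95% in SMB56-THZ1, 0.4125% in SMB56-GDC0449, 0.389% in SMB56-DMSO and 0.1385% in SMB56-shSufu-DMSO. As a share of summed FPKM it was 4.87% in SMB56-THZ1, 0.4875% in SMB56-GDC0449 and 0.477% in SMB56-DMSO. In SMB56-shSufu the FPKM share of the 4 models was 1.73% and 2.42% with THZ1, and 0.199% and 0.224% with DMSO. With Gm42418, which stands in the SMB56-shSufu table alone, the mean FPKM share there was 3.55% with THZ1 and 0.240% with DMSO. With 1 library left out the share of the table's counts was 6.54% to 6.55% in SMB56-THZ1, 0.337% to 0.349% in SMB56-GDC0449 and 0.319% to 0.328% in SMB56-DMSO. It was 0.103% to 0.117% in SMB56-shSufu-DMSO and 1.92% to 2.79% in SMB56-shSufu-THZ1. Gm26917 alone shifted other genes by -0.0806 in SMB56. Tables hold subsets of genes, and the SMB56 THZ1 table was selected on its outcome, so shares are not shares of whole libraries. With 2 libraries a group, no outlier among them can be told.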
